A study of Mus musculus with 2 samples.

Results

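The regions described here lie within the first 5 Mb of assembled sequence at the centromere end of each mouse autosome. They were chosen by position alone: every region of the deposited list on chromosomes 1 to 19 with a start below 8000000 (mm10). This gave 1223 regions out of 34675 on the autosomes and 35861 in the whole list. The reference sequence of each mouse chromosome begins with a gap of 3 Mb that stands for the unassembled centromere end, so each window ran from 3 to 8 Mb and none of the gap was measured. The 19 windows made up 95 Mb, or 3.95% of the autosomal length, and were set against the other 2308 Mb of the same chromosomes. The rule uses no measured value.

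The study captured methylated DNA from primary chondrocytes of the knee cartilage of C57BL/6 mice at postnatal day 3. One group is labelled Control and the other Uhrf1 cKO, a conditional knockout. Both were grown to confluence and treated with rhBMP-2, a recombinant bone morphogenetic protein that drives cartilage and bone differentiation, at 100 ng/ml for 24 hours. Each genotype had 1 library (Control 9782276 and cKO 15039206 tags after removal of duplicates), so no difference has a replicate check, and the list holds only regions in which Control exceeded cKO. The labels name neither the driver of the Cre nor the number of mice behind a library. No expression values were analysed here, so the chondrocyte label was not checked against marker genes. The targeted gene, Uhrf1 (chromosome 17, 56303337 to 56323486), lies outside the windows and held 5 regions, which do not check the deletion. A fall in captured DNA in every cell and a complete loss in some of the cells cannot be told apart in these bulk libraries.

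Mouse autosomes are acrocentric: the centromere sits at one end, buried in long arrays of satellite repeats that are heavily methylated at CpG and packed into heterochromatin. The assembled sequence next to these arrays is a mixture of ordinary genes, expanded gene families and segmental duplications. UHRF1 recognises hemimethylated CpG behind the replication fork and recruits DNMT1, which copies methylation onto the new strand, and it gathers at pericentric heterochromatin during replication. The MBD2 protein used for capture binds methylated CpG, so a region in the list is a stretch where Control DNA was captured more than cKO DNA. Each region carries the authors' values: the number of Control tags in it, the fold of Control tags at its summit over the background expected from the cKO library, and an FDR. For this FDR the caller exchanged the libraries, counted the regions that then passed, and gave that number as a percent of the regions called in the listed direction.

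MBD2 capture reaches methylated CpG, and the number of CpG differed widely between promoters of these windows. The following stretches are the 250 bases before a transcript start, from the RefSeq promoter table (GRCm38.p6, the assembly that mm10 names), 5′ to 3′ on the gene's strand, with each CpG in capitals. The first set is shown because a region covered or overlapped these promoters. Plekhg1 (chr10:3872417-3872666, plus strand), a protein-coding gene, has 3 CpG here. Gm29721 (chr17:6583067-6583316, minus strand), a predicted coding gene, has 6. Gm39575 (chr11:6694659-6694908, plus strand), a predicted long noncoding RNA, has 3.
Plekhg1: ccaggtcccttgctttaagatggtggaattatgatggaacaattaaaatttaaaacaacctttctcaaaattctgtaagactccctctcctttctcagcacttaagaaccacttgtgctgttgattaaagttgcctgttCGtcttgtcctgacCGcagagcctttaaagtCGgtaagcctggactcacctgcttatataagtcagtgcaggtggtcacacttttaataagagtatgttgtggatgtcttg
Gm29721: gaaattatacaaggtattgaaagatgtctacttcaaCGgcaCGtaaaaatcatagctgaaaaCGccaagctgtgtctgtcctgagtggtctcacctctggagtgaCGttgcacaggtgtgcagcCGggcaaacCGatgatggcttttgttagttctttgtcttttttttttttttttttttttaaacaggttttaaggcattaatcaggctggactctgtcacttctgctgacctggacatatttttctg
Gm39575: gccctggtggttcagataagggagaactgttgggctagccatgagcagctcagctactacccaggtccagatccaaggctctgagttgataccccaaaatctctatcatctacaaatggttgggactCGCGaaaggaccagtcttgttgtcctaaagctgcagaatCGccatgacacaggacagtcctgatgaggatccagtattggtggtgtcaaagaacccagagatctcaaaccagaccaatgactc

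A second pair is shown because no region overlapped these promoters although both genes lie in the windows. Dnmt3a (chr12:3806730-3806979, plus strand), a de novo DNA methyltransferase, has 38 CpG in this stretch. Mmp13 (chr9:7272264-7272513, plus strand), the collagenase of hypertrophic chondrocytes, has 1.
Dnmt3a: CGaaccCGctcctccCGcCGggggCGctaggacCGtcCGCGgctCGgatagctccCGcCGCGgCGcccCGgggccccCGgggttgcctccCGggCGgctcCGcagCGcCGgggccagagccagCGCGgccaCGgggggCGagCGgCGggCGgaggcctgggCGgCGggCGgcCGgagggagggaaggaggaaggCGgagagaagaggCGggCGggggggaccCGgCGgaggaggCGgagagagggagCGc
Mmp13: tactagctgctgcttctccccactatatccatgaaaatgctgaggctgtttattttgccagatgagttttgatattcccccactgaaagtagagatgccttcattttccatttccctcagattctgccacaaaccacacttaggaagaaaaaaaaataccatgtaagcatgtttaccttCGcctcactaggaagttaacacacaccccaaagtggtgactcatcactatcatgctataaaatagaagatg

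The last pair is shown because it is an example of repeated promoter sequence in the window of chromosome 14. The promoters are those of 2 predicted genes over 1 Mb apart, Gm41083 (chr14:3987082-3987201, plus strand) and Gm41089 (chr14:5039323-5039442, plus strand). Neither gene is counted among the protein-coding models of that window. The promoters are given over 120 bases without a CpG, so no letter is in capitals. They are identical over the whole promoter window, as is that of another gene, Gm46469.
Gm41083: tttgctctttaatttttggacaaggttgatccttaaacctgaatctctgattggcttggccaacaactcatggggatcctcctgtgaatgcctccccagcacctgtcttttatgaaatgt
Gm41089: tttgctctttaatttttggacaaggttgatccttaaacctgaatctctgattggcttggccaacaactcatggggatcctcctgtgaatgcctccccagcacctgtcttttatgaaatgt

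Regions were somewhat sparser in the first 5 Mb than in the rest of the same chromosomes. The windows held 12.9 regions per Mb (12.2 to 13.6, exact Poisson 95% interval), against 14.5 per Mb (14.3 to 14.6) elsewhere. The ratio was 0.888 (0.838 to 0.941, exact conditional 95% interval), with 12 chromosomes lower than their rest and 7 higher. In a narrower window, from 3 to 5.5 Mb, the ratio was 0.973 (0.900 to 1.05), which includes 1. These intervals, and those of shares below, cover counting error only and treat regions as independent. The interval of the single chromosome lay below 1 on chromosomes 3, 4, 5, 8, 9, 13 and 14 and above 1 on chromosomes 17 and 19. The windows therefore did not move together, and the pooled ratio hides a wide range.

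Chromosome 14 was the lowest, with 7 regions or 1.4 per Mb (0.563 to 2.89) against 11.2 in its rest. That is a ratio of 0.124 (0.0499 to 0.257), and this window ranked last of the 24 windows of 5 Mb on the chromosome. Chromosome 4 followed with 30 regions, 6.00 per Mb against 15.7. Chromosome 8 (41 regions) held 8.20 per Mb against 17.1, chromosome 9 (41 regions) 8.20 against 15.6 and chromosome 3 (31 regions) 6.20 against 11.2. Chromosome 19 was the highest, with 143 regions or 28.6 per Mb (24.1 to 33.7) against 18.6, a ratio of 1.54 (1.28 to 1.83). Chromosome 17 (114 regions) held 22.8 per Mb against 18.2, a ratio of 1.25 (1.02 to 1.51). Chromosome 11 (118 regions) held 23.6 against 19.5, with an interval of the ratio that reached 0.996. The other 11 windows held between 48 and 76 regions; among them chromosome 5 held 11.8 per Mb against 18.3 and chromosome 13 held 10 against 14.1. Without chromosome 14 the pooled ratio was 0.921 (0.869 to 0.976), without chromosome 19 it was 0.834 (0.784 to 0.886), and without both it was 0.867.

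**Figure D1:**
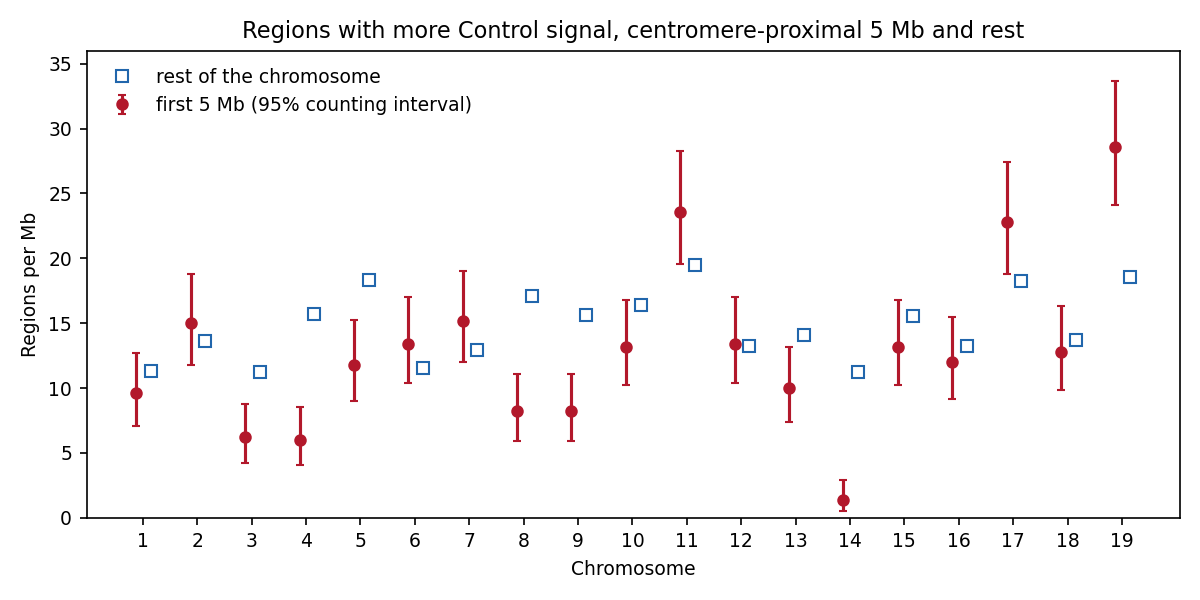
Regions with more Control than cKO signal per Mb for each autosome, in the window from 3 to 8 Mb (filled points with exact Poisson 95% intervals) and in the rest of the chromosome. The window of chromosome 14 sits at 1.4 per Mb and that of chromosome 19 at 28.6 per Mb, and 12 of the 19 windows lie below their rest.

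Along the chromosomes the windows formed a shoulder above a trough. Pooled over the 19 autosomes, the density fell from 12.9 per Mb in the first 5 Mb to 10.6 between 8 and 13 Mb and 8.32 between 13 and 18 Mb, then stood at 11.3, 12.2 and 14.9 in the next 3 steps. The last 5 Mb, at the other end of the chromosome, held 17.6 per Mb (16.8 to 18.5). The first 5 Mb exceeded the next 5 Mb by a ratio of 1.21 (1.12 to 1.32), with 13 chromosomes higher and 6 lower. It was below the last 5 Mb by a ratio of 0.731 (0.678 to 0.787), with 7 chromosomes higher and 12 lower. Protein-coding genes had a like course in part: 9.15 per Mb in the first 5 Mb, 5.81 in the next, 5.42 between 13 and 18 Mb and 11.6 in the last 5 Mb. In the 3 steps after 18 Mb, where regions rose, they stood at 9.25, 9.3 and 8.73 per Mb. The part of the length inside coding genes rose from 37.1% in the first 5 Mb to 39.45% in the next, where regions fell. Within the windows, the steps of 1 Mb from the gap outwards held 14.1, 14.9, 12.1, 12.9 and 10.3 regions per Mb, with 10.4, 12.5, 9.21, 8.11 and 5.53 genes per Mb. The step beside the gap was therefore not the sparsest of the windows.

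**Figure D2:**
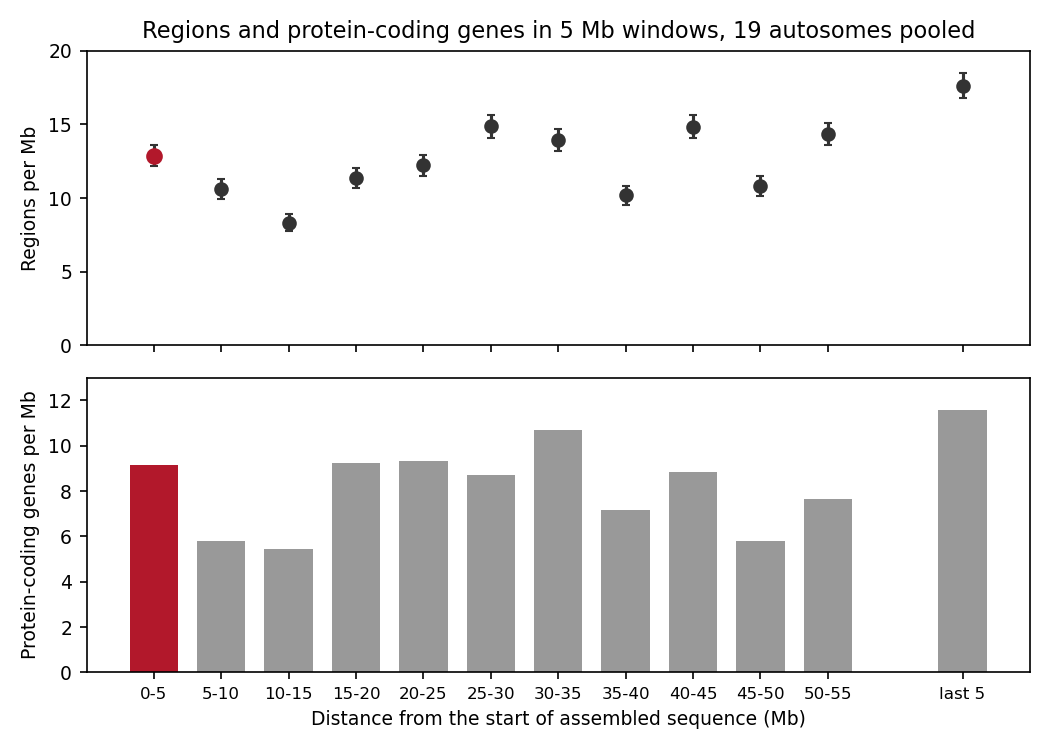
Regions per Mb (upper panel, with exact Poisson 95% intervals) and protein-coding genes per Mb (lower panel) in steps of 5 Mb from the end of the gap, pooled over the 19 autosomes, with the first step in red and the last 5 Mb of each chromosome at the right. The horizontal axis counts Mb from the end of the gap, and both panels fall from the first step (12.9 regions and 9.15 genes per Mb) to the one from 10 to 15 Mb (8.32 and 5.42).

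Across the 19 windows, density and coding genes per Mb had a Pearson r of 0.577 and a Spearman coefficient of 0.505. Without chromosomes 14 and 19, the ends of the range of density, these were 0.522 and 0.606 (n = 17). For density and the part of the length inside coding genes, the coefficients were 0.602 and 0.603, and without those 2 chromosomes 0.622 and 0.608. The windows come from the same pair of libraries and are given as a description. The windows had more coding genes per Mb than the rest (9.15 against 8.53) but a smaller part of their length inside them (37.1% against 41.0%), with a median gene length of 16.0 kb against 17.6 kb. Inside coding genes the windows held 16.7 regions per Mb against 19.8, a ratio of 0.844 (0.776 to 0.916). Outside them they held 10.6 against 10.8, a ratio of 0.983 (0.907 to 1.06). Outside genes the windows and the rest thus differed by less than the counting interval. The difference between these 2 ratios was not tested. Without chromosome 14 the same ratios were 0.879 (0.808 to 0.954) and 1.02 (0.939 to 1.10).

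By the position of its summit, 45.3% of the regions of the windows (42.5 to 48.1%, Wilson 95% interval) lay within a protein-coding gene, more than 1 kb from both ends, against 53.5% of the rest. A further 3.76% (2.83 to 4.98%) lay within 1 kb of a coding gene's end against 4.68%. Noncoding gene models and pseudogenes took 8.91% against 7.51%, and 42.0% (39.3 to 44.8%) were intergenic against 34.3%. Neighbours were farther apart in the windows, with a median gap of 33.4 kb against 27.01 kb, while 6.15% of the gaps were within 2 kb against 6.09%.

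In fold, tags and length the regions of the windows were close to those elsewhere. The median fold in the authors' deposited table was 12.1 (quartiles 8.40 and 19, range 3.12 to 94.5), and in the rest it was also 12.1 (8.52 and 18.02). The median number of Control tags was 103 against 104, and the median length 476 against 477 bp. Of the 1223 regions, 689 (56.3%, 53.5 to 59.1%) had an FDR of at most 5%, where the share over all autosomal regions was 57.3%. A fold of at least 10 was reached by 783 (64.0%), where the share over all autosomal regions was 64.2%. At least 300 tags were held by 91 regions (7.44%, 6.10 to 9.05%) against 6.27% of the rest, which lies within the interval. Under 50 tags were held by 271 (22.2%, 19.9 to 24.6%) against 19.8%, just outside it. An FDR of 100% was given to 210 regions (17.2%, 15.2 to 19.4%), whose median was 32 tags, and to 16.1% of the rest, which lies within the interval. By chromosome the median fold was higher than in the rest on 11 and lower on 8, the median tag count was higher on 6 and lower on 12, and the share with an FDR of at most 5% was higher on 7 and lower on 12.

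**Figure D3:**
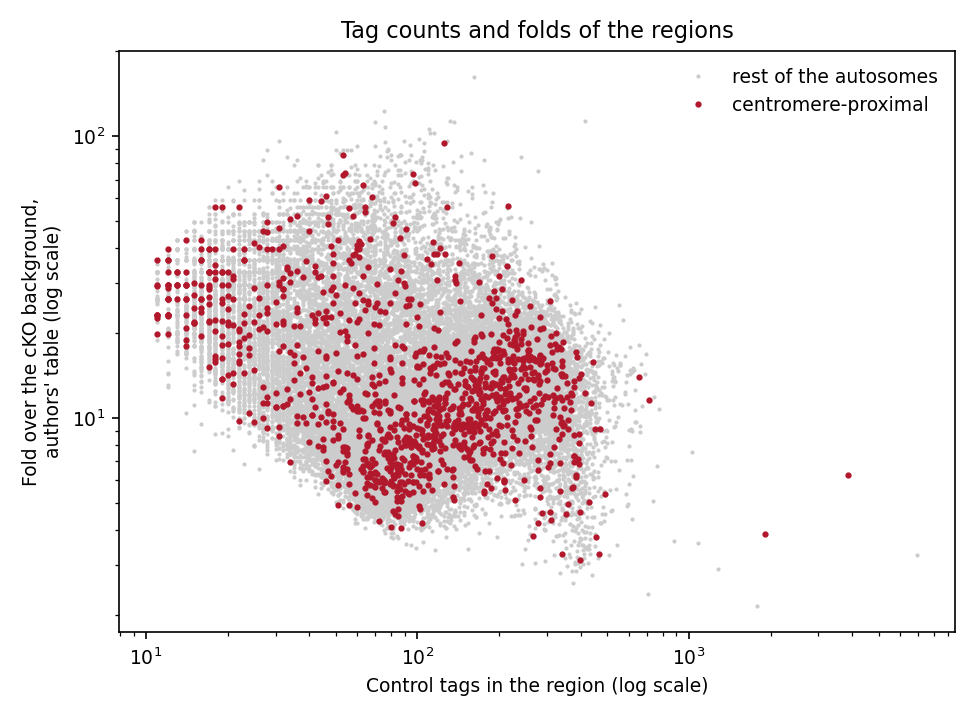
Fold in the authors' deposited table against Control tags of each region, both on log axes, for the 1223 regions of the windows over those of the rest. The clouds cover the same area, with medians of 12.1-fold and 103 tags in the windows and 12.1-fold and 104 tags in the rest. The 2 points of the windows farthest to the right hold 3851 and 1912 tags, and the highest point on the tag axis, 6918, belongs to the rest.

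The 10 largest folds stood on 31 to 125 tags, where the median of the windows was 103. All 10 had an FDR of at most 2.07%. A region on chromosome 18 (3219166 to 3219660) had the largest fold of the windows at 94.5 with 125 tags. Its summit lay 46.9 kb from Crem, a cAMP-responsive transcription factor. On chromosome 7, a region starting at 5559309 had 85.7-fold with 53 tags, one at 7288859 in Clcn4, a chloride and proton exchanger, had 72.5-fold with 53, and one at 4147320 in Leng8 had 68.2-fold with 98. On chromosome 19, a region at 6897162, its summit 9.3 kb from Prdx5, a peroxiredoxin, had 73.6-fold with 54 tags. The chromosome 17 region at 5436970 in Tmem242 had 73.0-fold with 96 tags. The remaining 4 of the 10 largest folds lay between 60.7 and 67.0 with 31 to 68 tags. None of the 10 held more than 125 tags. The smallest fold, 3.12, belonged to a region with 397 tags at 4871185 on chromosome 13.

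The 2 regions with the most tags lay close to the gap, at modest fold. A region on chromosome 11 (3100005 to 3104788) was the longest of the whole list at 4784 bp and held 3851 tags at 6.25-fold. Its summit lay 31.3 kb from Sfi1. A region on chromosome 4 (3089486 to 3091292), its summit 81.9 kb from the vomeronasal receptor gene Vmn1r2, held 1912 tags at 3.87-fold. Next came chromosome 13 (3337342 to 3338682) with 712 tags at 11.5-fold, chromosome 17 (6455256 to 6456616) with 657 tags at 13.96-fold and chromosome 12 (3109445 to 3110154) with 491 tags at 5.35-fold. Of the 7 autosomal regions with over 1000 tags, 2 lay in the windows, and the autosomal maximum, 6918 tags, was on chromosome 14 at 19415688, outside them. The pair of regions at the top held 5763 tags, 3.51% of the tags of all 1223. Those on chromosomes 11, 4 and 12 start within the first 200 kb. That stretch held 53 regions on 15 chromosomes, 13.9 per Mb, with a median of 97 tags and 11.6-fold. Whether tags there came from satellite or other repeats was not tested, since the repeat content was not analysed here and the treatment of reads matching several places is not given in the sources used here.

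**Figure D4:**
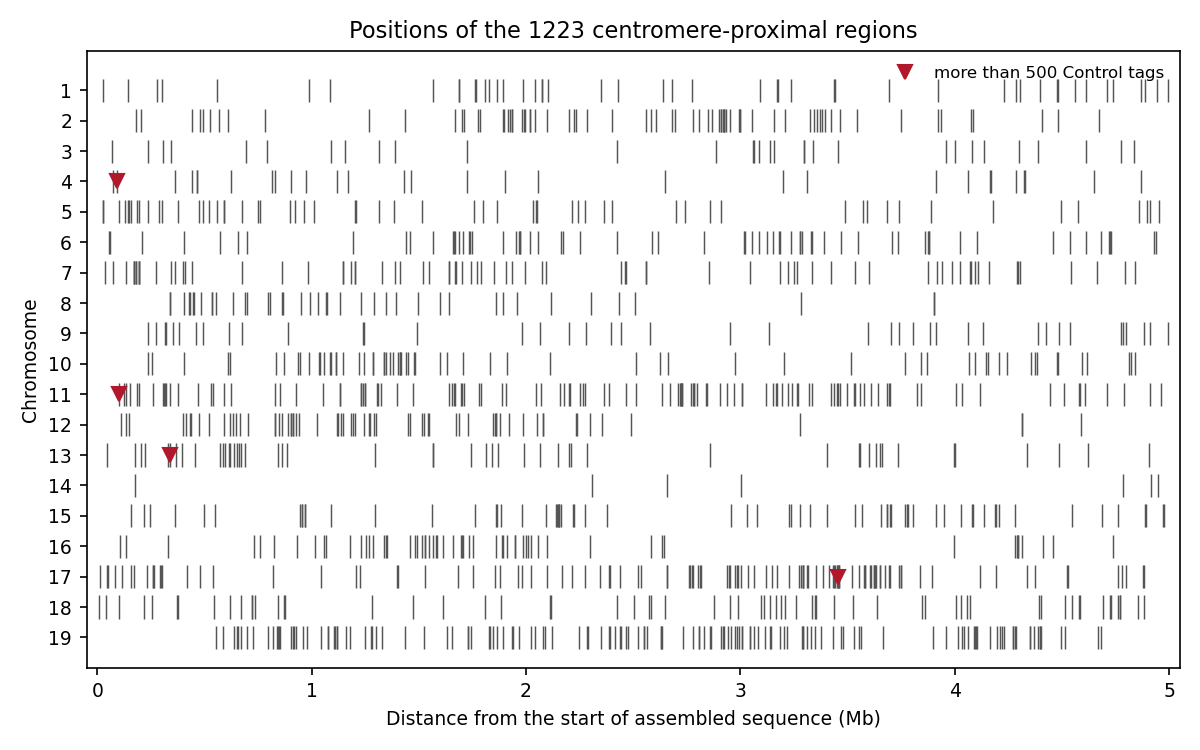
Position of each of the 1223 regions in Mb along the windows of the 19 autosomes, with a line for each region and a triangle for the 4 with over 500 Control tags. The row of chromosome 14 holds 7 regions, and the regions of 3851 and 1912 tags lie near the left edge of chromosomes 11 and 4.

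At the other edge, the regions just inside the limit were chromosome 9 at 7995249 in Yap1 (136 tags, 9.50-fold), chromosome 1 at 7993681 (22 tags, 9.77-fold) and chromosome 15 at 7975728 in Wdr70 (5.11-fold). Just outside it lay chromosome 7 at 8000493 (240 tags, 17.4-fold), chromosome 15 at 8006803 (7.11-fold) and chromosome 18 at 8012478 (16.5-fold).

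The sparse window of chromosome 14 is filled with predicted gene copies. It holds 80 protein-coding gene models, of which 77 carry Gm, Rik or LOC names. Of its 7 regions, 4 lay between 3177432 and 6002697, held 12 to 65 tags, and none had an FDR of at most 5%. Nearer the far side of the window, 1 lay at Gm10044 (173 tags, 19.6-fold). The largest stretch without a region was 2129 kb. Of its 156 promoter windows (300 bases, 250 before and 50 after a start), 145 (92.9%) shared a run of 55 bases, the tag length, with another promoter, as the identical pair printed above shows, and 35 were identical throughout to another one on the chromosome. In other windows the share was 30.8% (4 of 13) on chromosome 4, 17.4% on chromosome 7, 16.7% on chromosome 13, 14.3% on chromosome 17 and 1.49% on chromosome 19. On chromosomes 9, 8 and 3, whose windows were also sparser than their rest, it was 6.67%, 3.08% and 0%. Over all windows it was 16.8% (213 of 1269) against 5.97% in the rest (1797 of 30094). Reads from such copies match several places, and the part of this in the low density was not tested.

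**Figure D5:**
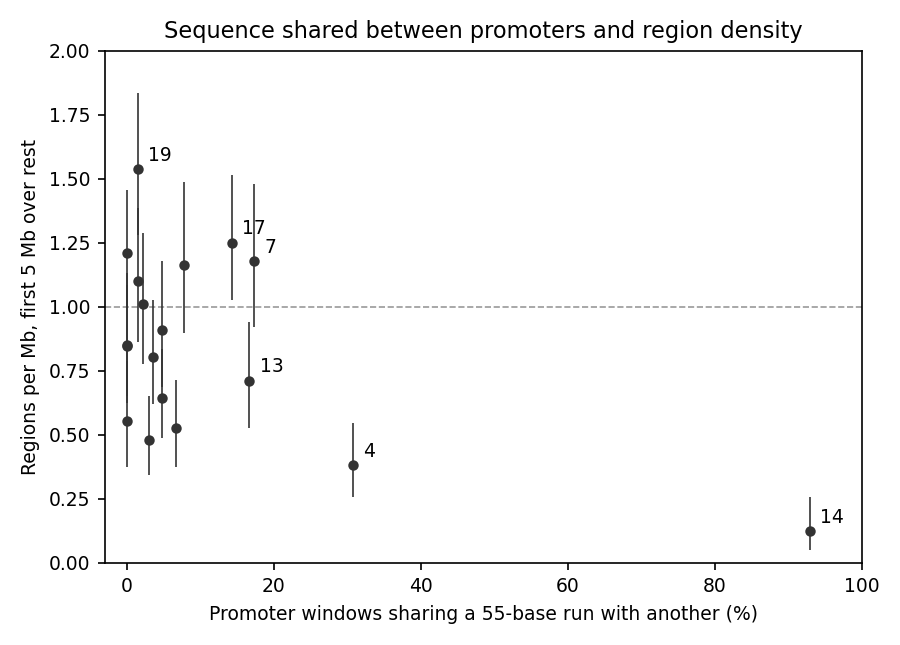
Share of promoter windows with a run of 55 bases found in another promoter (horizontal axis, percent) against the ratio of regions per Mb in the window to the rest of the chromosome (vertical axis, bars are 95% counting intervals), for each autosome with promoters in the table. Chromosome 14 stands at 92.9% and a ratio of 0.124, and chromosome 4 at 30.8% and 0.383. The other windows lie at 17.4% or less with ratios from 0.48 to 1.54. Among them, chromosomes 8, 9 and 3 stand at 3.08%, 6.67% and 0%, with ratios of 0.48, 0.53 and 0.55.

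Regions were most crowded in 3 bins on chromosomes 17, 19 and 16. The fullest bin of 1 Mb was chromosome 17 from 6 to 7 Mb, with 47 regions among 16 genes and a median of 128 tags and 12.6-fold. Of the 47, 28 had an FDR of at most 5%, where the share over all autosomal regions was 57.3%. The bin includes part of Synj2, an inositol phosphatase, with 2 of the 7 regions of that gene. Chromosome 19 from 5 to 6 Mb followed with 38 regions among 53 genes, and chromosome 16 from 4 to 5 Mb with 35 among 21 genes, including 5 in Srl and 4 in Adcy9, an adenylyl cyclase. On chromosome 19, 90 of 183 coding genes (49.2%) had a region within 5 kb, beside 49.3% of all autosomal coding genes.

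Fewer coding genes of the windows carried a region than elsewhere. Of 869 coding genes, 293 (33.7%) were overlapped, where the share over all 20556 autosomal coding genes was 39.7%. A region lay within 5 kb of 375 (43.2%), against that 49.3% of all, and within 1 kb of an end of 53 (6.10%), against 7.94% of all. Without chromosome 14, where 2 of 80 had one within 5 kb, the count was 373 of 789 (47.3%). The counts by gene family were described without a test. Among zinc finger genes (Zfp), many of which encode repressors, 4 of 23 had a region within 5 kb against 183 of 365 elsewhere, and 16 of the 23 sit on chromosome 7. None of 10 olfactory receptor genes (Olfr) had one, against 49 of 1093 elsewhere, 1 of 14 Vmn1r genes against 7 of 214, and 0 of 8 Akr1c genes, aldo-keto reductases that have no member elsewhere. Models with Gm, Rik or LOC names had one in 13 of 114 (11.4%) against 26.8%. The other coding genes had one in 362 of 755 (47.9%) against 51.1%.

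Transcript starts were rarely covered in the promoter set used, which lacks chromosome 18 and some genes elsewhere. Regions overlapped 8 of 1270 promoter windows (0.630%, 0.320 to 1.24%) against 346 of 30126 (1.15%, 1.03 to 1.28%) in the rest. They were Plekhg1, covered whole (75 tags, 5.47-fold, FDR 100%), Gm29721 (206 tags, 10.6-fold), Gm39575 (173 tags, 16.8-fold), Gm11946 (196 tags, 17.6-fold), Gm36681 (126 tags, 11.3-fold), Gm52888 (111 tags, 14.96-fold), Gm33539 (22 tags, 15.9-fold, FDR 100%) and Gm46029 (72 tags, 4.29-fold, FDR 100%). These 8 held 3 to 9 CpG each with a median of 5, and those not overlapped had a median of 8. None of the 598 with at least 10 CpG was overlapped, which allows a share of up to 0.502%, against 104 of 13202 (0.788%, 0.651 to 0.954%) in the rest. In the rest the share peaked at 3.04% for 5 to 9 CpG and was 0.233% for 20 or more. The printed promoters show the range: 3 CpG in the stretch of Plekhg1, 38 in that of Dnmt3a.

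The gene with the most regions, together with Mthfd1l, was Dnmt3a (chromosome 12, 3801559 to 3914443), the de novo methyltransferase whose CpG-rich promoter is printed above. It held 9. Of these, 5 had an FDR of at most 5%: 3829545 to 3830155 (256 tags, 18.4-fold), 3831028 to 3831498 (110 tags, 11.3-fold), 3849285 to 3849933 (104 tags, 9.05-fold), 3890763 to 3891295 (163 tags, 12.6-fold) and 3912726 to 3913429 (322 tags, 14.9-fold). The fourth of these ended 198 bases before the promoter window of an internal transcript start (3891494 to 3891793, 18 CpG), and none of the 3 Dnmt3a promoter windows was overlapped. The remaining 4 held 20 to 175 tags at 5.42 to 33.0-fold, with an FDR of 12.02% or more. Dnmt3a was the single gene of the DNA methylation machinery in the windows, and 14 of the 17 autosomal genes of that list elsewhere had a region within 5 kb. The share over all autosomal coding genes was lower, at 49.3%, and the difference was not tested.

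The other genes with many regions came from several pathways. Mthfd1l, a mitochondrial enzyme of folate metabolism, held 9 regions of 9.54 to 56.0-fold, 5 of them with an FDR of at most 5%. Dhtkd1, a mitochondrial dehydrogenase of lysine breakdown, held 8 in 46.6 kb, of 71 to 307 tags and 7.76 to 25.5-fold, all 8 with an FDR of at most 5%. Cdk14, a cyclin-dependent kinase, also held 8, in 577 kb, 4 of them with an FDR of at most 5%. There were 7 each in Ppp1r9a, a neuronal actin-binding protein, the splicing regulator Rbfox1, Synj2 and the Rab GTPase-activating protein gene Usp6nl, and 6 each in Arid1b, a subunit of the BAF chromatin remodeller, and the kinase gene Camk1d. Per kb, the fullest genes with at least 3 regions were Dynlt1b (0.273), Wdcp (0.226), Dhtkd1 (0.172), Phyh (0.152) and Rmnd1 (0.137). Dynlt1b, a dynein light chain, belongs to a family with further members in the same window, and how reads matching several of them were placed was not tested.

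At gene ends, a region of 68.2-fold (98 tags) lay in the end of Leng8 on chromosome 7, within 1 kb of Leng9, and counted for both. A region of 56.0-fold lay in the end of Ezr, the membrane linker ezrin, and within 1 kb of Sytl3, with 22 tags and an FDR of 15.4%. Nlrp4c had 41.1-fold (60 tags), in a region 173 bases from its promoter window. Ewsr1, an RNA-binding protein, had 38.1-fold (49 tags), Asb13 35.4-fold (142 tags), Sfi1, a centrosome protein, 29.7-fold (31 tags), Dynlt1b 21.9-fold (15 tags, FDR 100%) and Tsga10ip 21.6-fold (215 tags). Except for Asb13 and Tsga10ip, each of these 8 regions held fewer than 100 tags.

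Of the hypertrophy and ossification genes, 5 of 25 lay in the windows and 2 had a region within 5 kb, against 14 of the 20 elsewhere. The share over all autosomal coding genes was 49.3%. Dlx5, a homeobox activator of chondrocyte hypertrophy, held 2 in its span, 6877930 to 6878556 (199 tags, 10.9-fold) and 6880276 to 6880765 (102 tags, 4.76-fold, FDR 100%), with another 1.5 kb away (147 tags, 9.48-fold). Its neighbour Dlx6 had one 3.4 kb away (163 tags, 6.77-fold). Col1a2, Vegfb and Mmp13 had none. Of the 22 matrix metalloproteinase genes, 10 lay in a cluster on chromosome 9 (7272514 to 7699585), and none was overlapped. Mmp1b had one 2.1 kb away (55 tags, 11.4-fold, FDR 27.9%). The 427 kb of the cluster held 4 regions, 9.37 per Mb, of 15 to 135 tags, 1 of them with an FDR of at most 5%. Elsewhere 7 of 12 genes of this list had a region within 5 kb. The stretch of Mmp13 printed above has 1 CpG.

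From the list of cartilage matrix genes, the windows held Ucma, a secreted protein of the upper growth plate, with 1 region (68 tags, 8.34-fold, FDR 42.6%). Of 39 genes of growth factor and growth plate signalling, 11 lay in the windows and 7 had a region within 5 kb, against 20 of 28 elsewhere. The share over all autosomal coding genes was 49.3%. The growth hormone receptor gene Ghr held 3 (44 tags at 31.8-fold, 140 at 18.7-fold and 32 at 18-fold, the last with an FDR of 84.6%). Lrp5, a Wnt coreceptor that sets bone mass, held 5, of 5.94 to 30.7-fold, 4 of them with an FDR of at most 5%. The oestrogen receptor gene Esr1 held 4, 1 of them with an FDR of at most 5% (194 tags, 24.4-fold) and the others with an FDR of 20.9% or more. Cdk6, a kinase of cell cycle entry, held 4 of 10.6 to 11.9-fold, 3 of them with an FDR of at most 5%. Yap1, a Hippo pathway coactivator, held 1 (136 tags, 9.50-fold). Klf6 (78 tags, 8.73-fold, FDR 38.3%) and Rela, a subunit of NF-kB (36 tags, 23.7-fold, FDR 9.25%), had one beside them. Ltbp3, Igfbp1, Igfbp3 and Insr had none.

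In the interleukin 6 family, whose ligands act on bone and cartilage through a shared receptor, 3 of 6 genes in the windows had a region within 5 kb, against 4 of 8 elsewhere. The share over all autosomal coding genes was 49.3%. The receptor gene Lifr held 3, of 212 tags at 22.4-fold, 113 at 11.8-fold and 208 at 8.20-fold, and had another 3.2 kb away (161 tags, 10.8-fold). All 4 had an FDR of at most 5%. The ligand gene Il11 had one at its end (137 tags, 9.21-fold), and Osm had 1 inside (19 tags, FDR 100%). Lif, Clcf1 and the receptor gene Osmr had none.

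Imprinted genes are expressed from one parental copy under the control of methylation set in the germ line, and 9 of the 39 listed lay in the windows, on chromosomes 6 and 7. Of these, 6 had a region within 5 kb, against 17 of 30 elsewhere and 49.3% of all autosomal coding genes. Sgce and Peg10, paternally expressed neighbours, shared a region (4746353 to 4746843, 158 tags, 9.06-fold). It lay inside Sgce, by the boundary of the gene that faces Peg10, and 462 bases from Peg10. Sgce held 5 in all, including 450 tags at 9.10-fold and 260 tags at 24.9-fold, and 3 of the 5 had an FDR of at most 5%. Ppp1r9a held 7 of 7.43 to 21.9-fold, 4 of them with an FDR of at most 5%. Its largest fold stood on 20 tags with an FDR of 100%. Asb4 held 1 (97 tags, 11.5-fold) and Calcr, the calcitonin receptor gene, 1 (207 tags, 13.99-fold). On chromosome 7, Usp29 held 3 (232 tags at 10.2-fold, 101 at 15.1-fold and 63 at 6.46-fold, the last with an FDR of 100%). Peg3, Zim1 and Tfpi2 had none.

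Among the tendon and fibroblast genes, the tendon transcription factor gene Mkx had a region 1.6 kb away (200 tags, 17.4-fold) and Zeb1 held 1 (190 tags, 13.3-fold). Both of 2 thus had one within 5 kb, against 7 of 14 elsewhere and 49.3% of all autosomal coding genes. Of the nuclear noncoding RNA genes, the neighbours Neat1 and Malat1 on chromosome 19 were in the windows. Neat1, the scaffold of paraspeckles, held 1 (332 tags, 17.8-fold), and Malat1 had one 3.1 kb away (121 tags, 9.43-fold) and one 4.6 kb away (61 tags, 42.5-fold). Both had one within 5 kb, against 1 of 7 elsewhere. The share over all noncoding genes was not computed, so this count has no background to set it against. With 1 to 11 genes of each list in the windows, these counts describe the genes and set no list apart.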

How the data were processed

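Genomic DNA sheared to about 300 bp was captured with MBD2 and sequenced from 1 Control and 1 Uhrf1 cKO sample. The authors used MACS 1.4.2 to call regions, per the file headers, with Control as the enriched and cKO as the background library, at a p limit of 1e-10, with at most 1 tag per position, a tag size of 55 bp and a modelled shift of 58 bp. Duplicate removal kept 44.8% of the Control and 76.1% of the cKO tags. Coordinates are mm10 (submitters' processing notes). The aligner is not given in the sources used here. The deposited tags are whole counts from Control. The deposited score is a Poisson p on a -10 log10 scale. The fold is a ratio and the FDR a percent, both as the authors' caller gave them. cKO tags per region were not used here.

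Regions were joined to the RefSeq genes and promoters of GRCm38.p6. Gene models with starts before 3 Mb, which belong to unplaced scaffolds, were left out. Promoters of chromosome 18 and of some genes elsewhere, among them Dlx5, Lrp5 and Sgce, were missing from the promoter set used. With 1 library per genotype there was no test between genotypes. Densities have exact Poisson, ratios exact conditional and shares Wilson 95% intervals, which cover counting error only, and a count of 0 allows 3 counts. The scripts were checked on simulated data. The rule for the members uses position alone, but it, the lists and the alternatives were chosen with earlier results of these data known. Named were coding genes without Gm or Rik names: the 10 with the largest fold within 1 kb of an end, the 10 with the most regions, the 5 with the most per kb among those with at least 3, and every listed gene in a window; and the regions with the 10 largest folds, the 5 highest tag counts, those nearest the limit and the 3 densest bins of 1 Mb. Genes of the overlapped promoters and of chromosome 14 were added after their values were seen. Alternatives changed the window, the limits on p, FDR and tags, the joining of regions, the overlap rule and the chromosomes used. The software was SciPy 1.17.1, NumPy 2.4.6 and pandas 2.3.3 under Python 3.11.15, with Matplotlib 3.10.9 for figures. Results for some single genes are not reported here.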

Additional observations from a re-analysis of the deposited data

How the results depend on the processing

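The ratio of densities lay between 0.801 and 0.973 over 10 alternatives and stayed below 1 in each. It moved to 0.973 (0.900 to 1.05) for windows of 3 to 5.5 Mb, where the interval included 1, to 0.801 for windows of 3 to 13 Mb and to 0.834 without chromosome 19; the cause was not tested. The difference in median fold (-0.17 to 0.12 over 8 alternatives) and in the share with an FDR of at most 5% (-1.10 to 0.600 percentage points over 5) had intervals that included 0 throughout, and both changed sign within these ranges. The share of summits anywhere inside a coding gene was 48.2% in the windows against 56.1% in the rest. This is a wider class than the one more than 1 kb from both ends given above. Its difference lay between -9.4 and -5.57 percentage points over 8 alternatives. Leaving out chromosome 14 was chosen for the FDR and gene shares after the data were seen. Depth limits the regions with under 50 tags, 22.2% of those in the windows. No paired analysis was possible because each genotype had 1 library.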

Other observations

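The densest bin, chromosome 17 from 6 to 7 Mb, contains neighbouring stretches with gene copies at a constant offset, which was noticed after the values were seen. Between Gm17879 and its copy Gm17880 the offset is 167 kb, and 2 of the 3 regions in the first stretch have a partner within 1 kb of that offset: 399 tags at 14.3-fold faces 393 tags at 13.8-fold, and 116 tags at 10.98-fold faces 138 tags at 8.36-fold. Between Tmem181b-ps and Tmem181c-ps the offset is 171 kb, and 6 of 8 regions have a partner. There the region of 657 tags (13.96-fold) faces one of 350 tags (14.1-fold), 157 tags (17.3-fold) faces 122 (16.4-fold), and 26 tags (20.7-fold) faces 32 (21.5-fold). The other 3 pairs hold 243 and 128, 159 and 65, and 271 and 73 tags. The part of reads matching both copies in these values was not tested.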
